A study of Mus musculus with 6 samples.

Results

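The genes described here are those of the cadherin superfamily, taken by name: cadherins (Cdh with a number), protocadherins (Pcdh), the Celsr genes, Fat1 to Fat4, Dchs1 and Dchs2. The rule itself uses names alone, although the superfamily was picked for description with earlier results of these data known. It found 77 of the 6756 cytosines in the authors' deposited tables, nearest to 28 of 3344 genes: 28 cytosines at 9 clustered Pcdha, Pcdhb and Pcdhg genes, and 49 cytosines at 19 other genes. The cells were LSK cells, the lineage-negative, Sca-1 and Kit positive fraction of bone marrow that contains haematopoietic stem and progenitor cells. They were sorted from mice of 6 months, 3 wild-type samples and 3 samples with the Tet1 knockout genotype, and the strain of both groups is labelled CD57BL/6. The form of the knockout allele, the cells it affects and whether each sample is 1 animal were not given in the sources used here. Tet1 encodes an enzyme that oxidises 5-methylcytosine. Methylation was read by bisulfite sequencing of an enhanced reduced representation library, which favours CpG-rich DNA and does not separate 5-methylcytosine from 5-hydroxymethylcytosine.

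A listed value is 1 methylation difference per cytosine over all samples, in percentage points, knockout minus wild type, and the lists begin at 25 percentage points. No value per sample, coverage or p-value was used here, so neither the depth nor the spread between replicates can be set beside a difference, and no comparison below carries a test. A gene name means the gene with the nearest transcription start, which need not be a gene that the cytosine regulates. RNA was not measured, so neither the loss of Tet1 nor the surface markers of LSK cells could be checked in these data.

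Cadherins are membrane proteins whose extracellular repeats bind calcium and hold neighbouring cells together. The cytoplasmic tails of classical cadherins bind catenins, which link the junction to actin. Protocadherins form the largest branch and are best known from neurons, and the Fat, Dachsous and Celsr proteins act in planar cell polarity and growth control. The clustered protocadherins lie in 3 neighbouring groups of variable exons, each with its own promoter, and promoter methylation is known to accompany the choice of which isoform a neuron transcribes.

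For 4 of the 19 non-clustered genes, the RefSeq table of promoters (build GRCm38.p6) held an entry and a listed cytosine lay within 1500 bp of the start. Clustered genes were left out, and Dchs1, with a listed cytosine 656 bp from its start, had no entry. The 250 bases before the start of each of the 4 genes are shown. They run 5′ to 3′ in the direction of the gene, with each CpG in capitals. By the distances in the files, the nearest listed cytosines of these genes lie 347 to 1199 bp from the starts, outside the stretches shown, and their positions are on another build (mm9).
Pcdh8, chr14:79771313-79771562, minus strand: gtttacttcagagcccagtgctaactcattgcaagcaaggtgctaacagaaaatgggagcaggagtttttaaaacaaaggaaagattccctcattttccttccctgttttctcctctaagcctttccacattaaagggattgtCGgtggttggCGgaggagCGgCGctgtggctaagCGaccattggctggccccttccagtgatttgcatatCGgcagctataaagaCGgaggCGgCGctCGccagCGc
Pcdh10, chr3:45378148-45378397, plus strand: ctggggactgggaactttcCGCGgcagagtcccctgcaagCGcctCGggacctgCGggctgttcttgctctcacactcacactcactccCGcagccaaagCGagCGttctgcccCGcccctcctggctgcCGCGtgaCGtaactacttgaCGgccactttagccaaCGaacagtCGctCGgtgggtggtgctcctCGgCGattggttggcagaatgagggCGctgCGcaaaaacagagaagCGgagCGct
Cdh22, chr2:165234738-165234987, minus strand: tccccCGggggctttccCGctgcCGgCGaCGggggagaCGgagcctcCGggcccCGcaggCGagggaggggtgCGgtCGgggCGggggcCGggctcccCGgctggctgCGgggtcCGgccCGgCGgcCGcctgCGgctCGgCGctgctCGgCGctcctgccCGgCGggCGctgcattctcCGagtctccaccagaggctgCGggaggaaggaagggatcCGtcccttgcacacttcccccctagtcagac
Cdh6, chr15:13173676-13173925, minus strand: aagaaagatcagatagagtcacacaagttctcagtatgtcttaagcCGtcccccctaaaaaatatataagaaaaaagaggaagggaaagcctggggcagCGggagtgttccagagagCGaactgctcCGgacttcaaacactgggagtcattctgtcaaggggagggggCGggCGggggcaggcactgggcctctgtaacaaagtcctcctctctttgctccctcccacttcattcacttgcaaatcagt

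The 4 promoters differ in CpG content: Cdh22 has 30 CpGs in 250 bases, Pcdh10 has 22, Pcdh8 has 11 and Cdh6 has 6. The median over all 32851 promoters of the table is 6, with quartiles of 2 and 16. Of the 19 non-clustered genes with listed cytosines, 14 had an entry, with 0 CpGs at Cdh26 to 30 at Cdh22 and a median of 7. The 15 genes of the rule that had an entry and no listed cytosine had a median of 15. In this table the 14 listed genes thus had no higher median than the 15 unlisted genes, which were taken from the whole rule.

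The first comparison was the direction of the differences. All 77 cytosines of the superfamily were more methylated in the knockout, and none was in the hypomethylated list. Hypermethylated cytosines made up 92.8% of everything listed, so a high share is also the background. Cytosines of the same direction under 1000 bp apart were then counted as 1 region. The 77 cytosines fell into 45 regions, all hypermethylated, where 89.4% of all 4237 regions were. By gene, all 28 had hypermethylated cytosines alone, where 87.0% of the listed genes did. The exact Clopper-Pearson 95% interval of 77 in 77 is 95.3 to 100% and that of 49 in 49 non-clustered cytosines is 92.7 to 100%. For 28 in 28 clustered cytosines it is 87.7 to 100%. These intervals cover counting error only and treat neighbouring cytosines as independent, which they are not.

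The size of the differences was close to that of the whole list. The authors' deposited values had a median of 43.0 percentage points at the non-clustered genes (quartiles 35.6 and 53.1, range 25.2 to 81.9) and 43.7 percentage points at the clustered genes (quartiles 36.6 and 52.3, range 27.5 to 75.0). Over all 6270 hypermethylated cytosines the median was 41.1 percentage points, with quartiles of 33.3 and 51.3. At least 40 percentage points were reached by 46 of the 77 cytosines (59.7%), against 53.4% of all hypermethylated cytosines. At least 60 percentage points were reached by 8 of them (10.4%), against 12.3%. The values nearest to the minimum of the lists were those of Cdh26 (25.2), Cdh13 (26.7) and Pcdhb20 (27.5 percentage points).

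**Figure D1:**
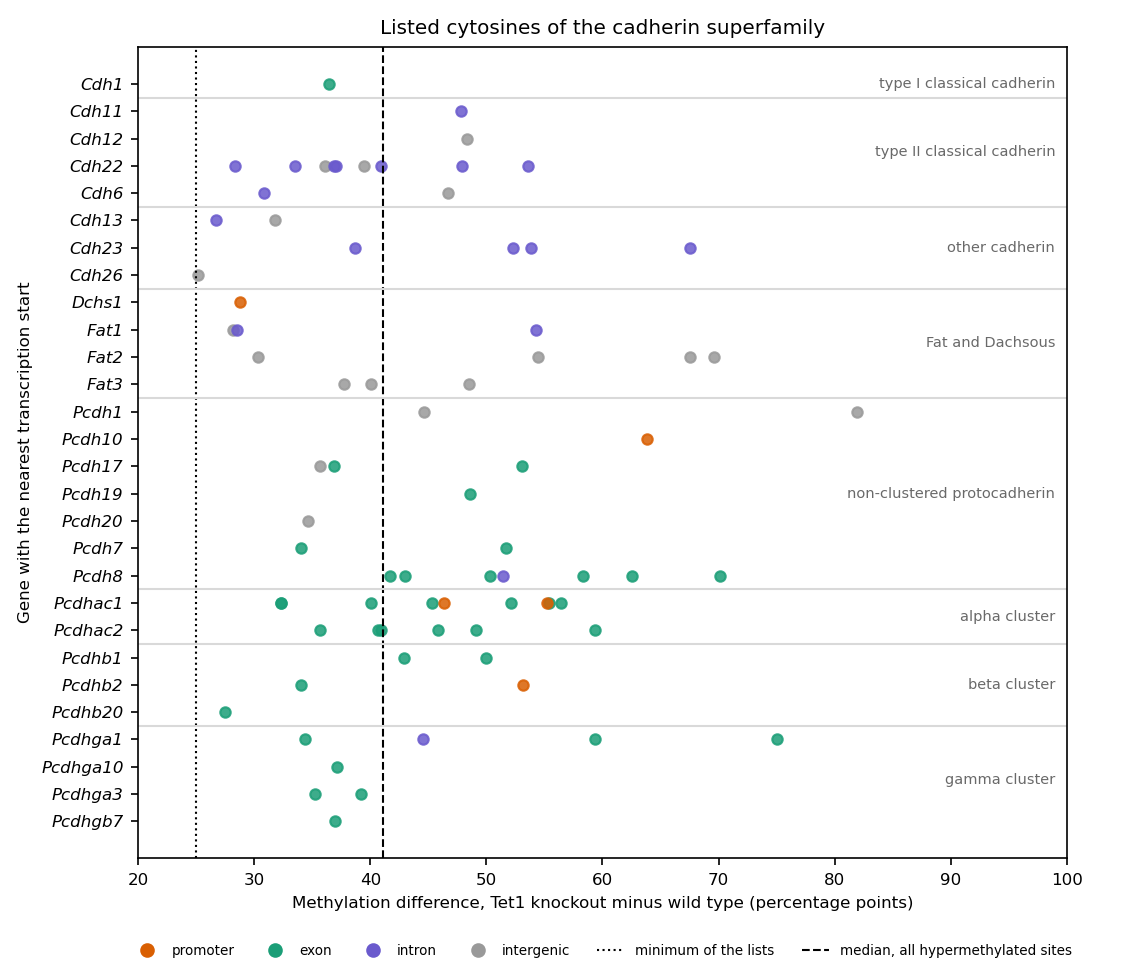
Methylation difference of each listed cytosine (horizontal axis, percentage points, knockout minus wild type) for the 28 genes, ordered by family, with points coloured by the annotated position of the cytosine. The dotted line is the minimum of the lists at 25 and the dashed line the median of all hypermethylated cytosines at 41.1. All 77 points lie to the right of the dotted line, since none was hypomethylated, and the points furthest right belong to Pcdh1 (81.9) and Pcdhga1 (75.0).

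Neighbouring cytosines give the only view of spread in these tables. Cytosines of the same strand belong to different CpGs, so their gaps are not measurement spread alone. Both strands of a single CpG were listed at Fat3, where the differences were 48.5 and 37.8 percentage points, a gap of 10.7. Over the 57 such CpGs of all lists the median gap was 8.29 percentage points, and 90% of the gaps were below 22.2. Cytosines of the same strand less than 50 bp apart, the length of a read, formed 22 pairs among the superfamily, with a median gap of 15.1 percentage points and gaps up to 40.6. Over all 1835 such pairs the median gap was 7.64 percentage points. Both members of a pair had to pass 25 percentage points, so these gaps leave out pairs in which the other cytosine was not listed. Differences between single cytosines of the size of these gaps are therefore not read below as differences between genes.

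The families differed in where the cytosines lay. Of the 28 clustered protocadherin cytosines, 24 were in exon 1 of their gene, 3 in promoters and 1 in an intron, and none was intergenic. Promoters and exons thus held 96.4% of them (95% interval by the exact Clopper-Pearson method 81.7 to 99.9%), against 30.8% of all hypermethylated cytosines. This interval also treats neighbouring cytosines as independent, which they are not, and 15 of the 28 lay at Pcdhac1 and Pcdhac2. The non-clustered protocadherins came next, with 11 of 17 cytosines in exons and 1 in a promoter. At the Cdh genes the order was turned round: 14 of 21 cytosines were in introns, 6 were intergenic and 1 was in an exon. At the Fat and Dachsous genes 8 of 11 were intergenic, 2 intronic and 1 in a promoter. In all, 10 of the 12 exon cytosines of non-clustered genes were in exon 1, where 410 of the 1226 hypermethylated exon cytosines of the whole list were. Those 10 lay at 4 genes, the protocadherins Pcdh7, Pcdh8, Pcdh17 and Pcdh19, and Pcdh8 held 6 of the 12. Protocadherin genes are known for a large exon 1 that encodes most of the extracellular part, whereas classical cadherin genes are split into many exons with long introns, and the part of gene structure in these shares was not tested. How many cytosines of each exon and intron were read is not known here.

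**Figure D2:**
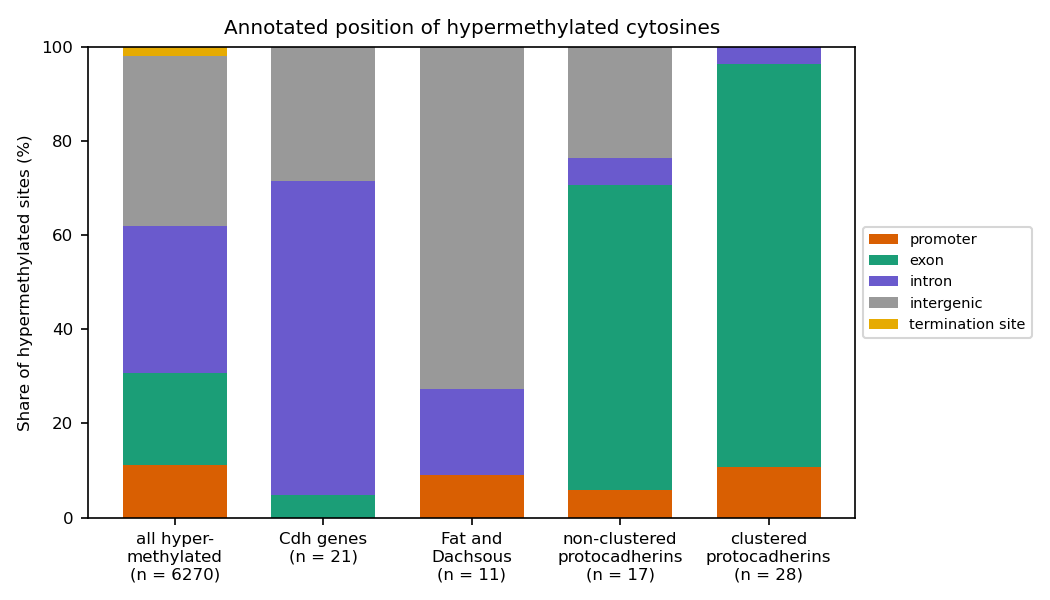
Share of hypermethylated cytosines (vertical axis, percent) by annotated position, for all 6270 hypermethylated cytosines, the Cdh genes (21), the Fat and Dachsous genes (11), the non-clustered protocadherins (17) and the clustered protocadherins (28). Exons and promoters fill nearly the whole bar of the clustered protocadherins, introns are the largest part of the Cdh bar, and intergenic sequence is the largest part of the Fat and Dachsous bar.

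The clustered protocadherin cytosines lay on chromosome 18 between 37249739 and 37912683 (mm9), a stretch of 662945 bp. All 28 listed cytosines there were nearest to clustered genes, which the choice of stretch and the nearest-start rule largely fix. None of them was hypomethylated. On the whole chromosome 206 cytosines were listed, 181 hypermethylated and 25 hypomethylated. The 28 cytosines formed 12 regions, 6 of them with at least 2 cytosines (50.0%). The share was 27.3% of the 33 non-clustered regions and 31.8% of all hypermethylated regions. The clustered cytosines lay close to starts, with a median distance of 442.5 bp. Within 1000 bp of the start were 21 of the 28 (75.0%), against 26.3% of all hypermethylated cytosines. In the direction of transcription 26 of the 28 lay after the start.

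In the alpha cluster the listed genes were Pcdhac1 and Pcdhac2, the C-type isoforms at the end of that cluster, and together they held 15 of the 28 cytosines. None of Pcdha1 to Pcdha12 was nearest to a listed cytosine. Pcdhac1 had 9 cytosines in 2 regions. The region at the start (37249739 to 37250191) held 6, from 51 bp before to 401 bp after the start. In the order of position the authors' deposited table gave them 46.3, 55.2, 40.03, 55.4, 45.3 and 32.3 percentage points. The 2 cytosines closest to the start, 51 bp before and 94 bp after it, are annotated as promoter and the others as exon 1 of 4. The second region lay 1857 to 1888 bp after the start, still in exon 1 (37251647 to 37251678), with 32.3, 52.1 and 56.4 percentage points. The ranges of the start region and the downstream region of Pcdhac1 overlapped. Pcdhac2 had 6 cytosines within 143 bp (37304407 to 37304549), all in exon 1 of 4 and 784 to 926 bp after its start. Their differences were 35.6, 59.4, 45.8, 49.1, 40.7 and 40.9 percentage points, 4 on the minus strand and 2 on the plus strand. The medians of Pcdhac1 and Pcdhac2 were 46.3 and 43.3 percentage points, and each lay within the range of values of the other gene.

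In the beta cluster, whose genes have a single coding exon each, 3 of 22 genes were listed with 5 cytosines. Pcdhb1, the first gene of the cluster, had 50.0 and 42.9 percentage points at 333 and 352 bp after its start. Pcdhb2, its neighbour, had 1 promoter cytosine 31 bp after its start at 53.1 percentage points and another 1888 bp after it, in exon 1 of 1, at 34.0. Pcdhb20 had 1 cytosine at 27.5 percentage points, 1634 bp after its start, the lowest value of the clustered genes. Values within a cluster are uncertain in their gene, since the coding exons of neighbouring protocadherins resemble each other and the handling of reads that match several copies was not given in the sources used here.

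In the gamma cluster 4 of 22 genes were listed with 8 cytosines. Pcdhga1, the first gene of that cluster, had 3 cytosines within 13 bp in exon 1 of 4, 185 to 197 bp after its start (37821784 to 37821796). The authors' deposited table gave them 59.4, 34.4 and 75.0 percentage points, so the highest and a low value of the clustered genes stood side by side on the same strand. Another cytosine, at 44.5 percentage points, lay 6412 bp before the start of Pcdhga1, in intron 1 of the transcript Gm37013 annotated over that stretch. Pcdhga3 had 35.2 and 39.2 percentage points at 425 and 460 bp after its start. Pcdhga10 had 37.1 percentage points at 290 bp and Pcdhgb7 had 37.0 percentage points at 1250 bp, each a single cytosine in exon 1 of 4. None of the C-type genes of this cluster, Pcdhgc3, Pcdhgc4 and Pcdhgc5, was listed. The constant exons 2 to 4 that the isoforms of the alpha or gamma cluster share held no listed cytosine.

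**Figure D3:**
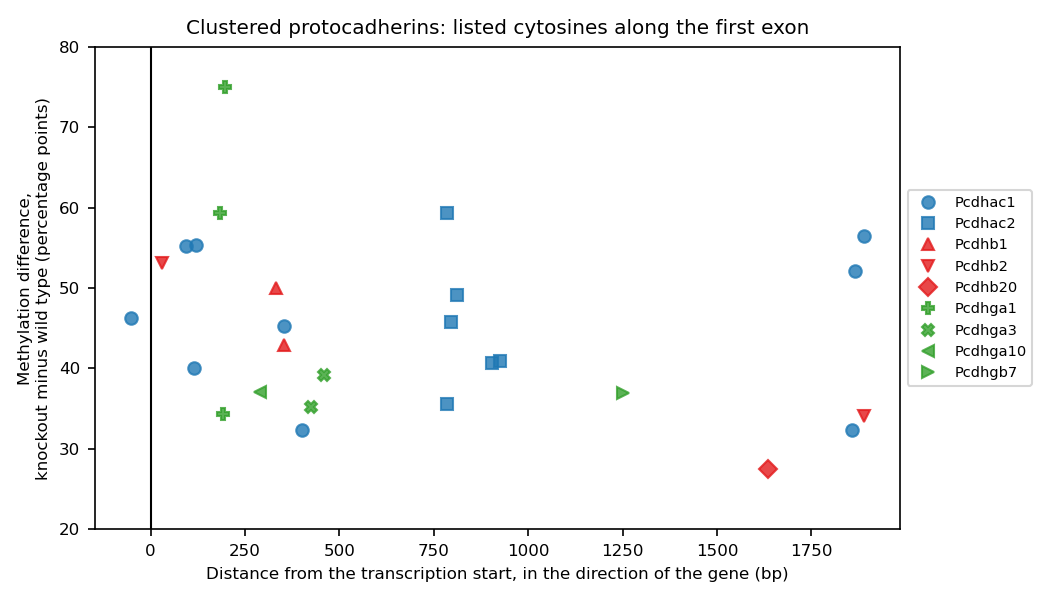
Methylation difference (vertical axis, percentage points, knockout minus wild type) against distance from the transcription start in the direction of the gene (horizontal axis, bp) for the clustered protocadherin cytosines, 1 marker shape per gene, with alpha genes in blue, beta in red and gamma in green. The cytosine 6412 bp before Pcdhga1 is outside the axis. Most points lie within 1000 bp after the start, and a few, from Pcdhac1, Pcdhb2, Pcdhb20 and Pcdhgb7, lie between 1250 and 1888 bp.

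Among the non-clustered protocadherins, 7 of 12 genes were listed with 17 cytosines, 7 of them at Pcdh8. Their median of 50.3 percentage points was the highest of the families, and the alpha cluster had 45.8. Single neighbouring cytosines differed by a median of 15.1 percentage points, which does not measure the spread of a family median. The differences have no replicate error and 7 of the 17 cytosines lay at Pcdh8, so this rank is not read as a difference between families. Pcdh8, which is involved in adhesion at synapses and in the paraxial mesoderm, had 7 cytosines on chromosome 14 (80167506 to 80170677) in 2 regions. The 3 nearest to the start, 442 to 613 bp after it in exon 1 of 3, were listed by the authors at 43.0, 62.5 and 70.1 percentage points. The other 4, 2306 to 3613 bp after the start, had 41.7, 58.3, 51.5 and 50.3 percentage points and lay in exons 1 and 3 and intron 2. All 7 exceeded 40 percentage points, with overlapping ranges in the 2 regions. Pcdh10, a protocadherin of axon growth, had a single cytosine at 63.8 percentage points on chromosome 3 (45182667), 347 bp after its start. The annotation places it in the promoter of another transcript, 2610316D01Rik. Pcdh17 had 36.9 and 53.1 percentage points in exon 1 of 4, 5036 and 5053 bp after its start, and an intergenic cytosine at 35.6 percentage points in an LTR repeat 586686 bp before it. Pcdh7 had 34.0 and 51.7 percentage points in exon 1 of 2 on chromosome 5 (58111336 and 58111849), 2076 and 2589 bp after its start. Pcdh19, an X-linked gene of an epilepsy disorder, had 48.6 percentage points in exon 1 of 5, 2631 bp after its start. Pcdh20 had 34.6 percentage points in a LINE repeat 350951 bp before its start. Pcdh1, an epithelial protocadherin, had 44.6 and 81.9 percentage points at 2 cytosines 24 bp apart in an intergenic CpG island on chromosome 18 (38349241 and 38349265), 20175 and 20151 bp from its start. The latter is the highest value of the superfamily, and its neighbour on the same strand was 37.3 percentage points lower.

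Among the Cdh genes, 8 were listed with 21 cytosines, with a median of 38.7 percentage points. Cdh22, a type II cadherin of brain, had 9 cytosines on chromosome 2 between 164992659 and 165061443, as many as Pcdhac1 but spread over 68784 bp in 8 regions. Of these, 7 lay in introns 1, 2 and 3 of 11, 6207 to 67578 bp after the start. From the start onward the authors' deposited table gave them 33.5, 40.9, 36.9, 53.6, 37.1, 28.3 and 47.9 percentage points, with no order by distance. The other 2, 1199 and 1206 bp before the start, had 39.5 and 36.1 percentage points. Cdh23, a component of the tip links of hair cells, had 4 cytosines within 45 bp on chromosome 10 (60148898 to 60148942), in a CpG island of intron 2 of 68, 10296 to 10340 bp after the nearest start. Their differences were 67.5, 52.3, 38.7 and 53.8 percentage points.

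The remaining Cdh genes had 1 or 2 cytosines each. Cdh1, the gene of E-cadherin, the main cadherin of epithelial junctions, had 36.5 percentage points in exon 2 of 16 on chromosome 8 (109128269), 1001 bp after its start. Cdh11, a mesenchymal type II cadherin, had 47.8 percentage points in intron 1 of 12, 1210 bp after its start. Cdh6, a type II cadherin of the kidney, had 46.7 percentage points 1052 bp before its start and 30.9 percentage points in a DNA transposon repeat of intron 2. Cdh12, another type II cadherin, had 48.4 percentage points in a LINE repeat 2349 bp before its start. Cdh13, which encodes T-cadherin, a form held in the membrane by a lipid anchor, had 31.8 percentage points 12857 bp before its start and 26.7 percentage points in intron 2 of 13. Cdh26 had 25.2 percentage points at an intergenic cytosine 408844 bp away. No cytosine of a Cdh gene lay within 1000 bp of a start.

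The Fat and Dachsous genes encode very large cadherins that bind one another between cells. Of the 6, 4 were listed with 11 cytosines and a median of 40.1 percentage points. Fat2 had 3 cytosines 2140 to 2402 bp before its start on chromosome 11 (55127899 to 55128161), at 69.6, 54.5 and 67.6 percentage points, and 1 more 24241 bp before it at 30.3. The 3 near the start all exceeded the distant one. Fat3 had 3 intergenic cytosines 124528 to 124716 bp before its start, at 40.1, 48.5 and 37.8 percentage points. Fat1 had 28.2 percentage points 214290 bp before its start, 28.5 percentage points in an LTR repeat of intron 1 of 25 and 54.3 percentage points in intron 2. Dchs1, the gene of a Dachsous protein, had 1 promoter cytosine 656 bp before its start on chromosome 7 (112936720), at 28.8 percentage points. Fat4, the gene of its best known binding partner, was not listed.

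Repeats held 7 of the 49 non-clustered cytosines (14.3%, against 7.11% of all hypermethylated cytosines). CpG islands held 6 (12.2%, against 4.29%), all 6 at Cdh23 and Pcdh1. The files label islands and repeats within intron and intergenic sequence only, so the clustered genes, with 1 such cytosine, could hardly carry either label.

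The share of listed genes differed between families. By the RefSeq table the rule covers 102 genes, and 28 of them (27.5%) were nearest to a hypermethylated cytosine. The same table gave the gene of each transcript and the protein-coding label. The background was 12.3% of 21896 protein-coding genes. Of the 44 non-clustered genes 19 were listed (43.2%), and of the 58 clustered genes 9 (15.5%), the latter close to the background. A gene counted as listed at any distance, here and in the background. Cdh26 was listed through 1 cytosine 408844 bp from its start and Pcdh20 through 1 at 350951 bp. The part of distance in these shares was not tested. Cytosines that were read and not listed are not known, and the part of their number in these shares was not tested. None of the 3 Celsr genes was listed. Unlisted classical cadherins included Cdh2, the gene of N-cadherin, and Cdh5, the gene of the endothelial VE-cadherin.

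**Figure D4:**
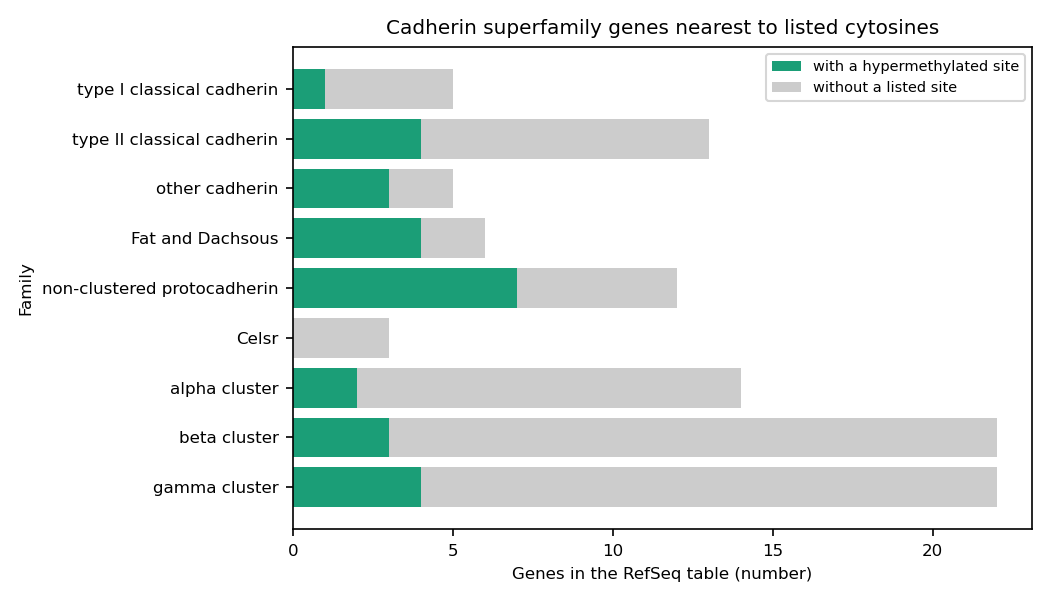
Number of genes per family in the RefSeq table (horizontal axis), divided into those nearest to a hypermethylated cytosine (green) and those without a listed cytosine (grey). The listed part was 4 of 6 genes in the Fat and Dachsous family, 3 of 5 among the other cadherins and 7 of 12 among the non-clustered protocadherins, against 2 of 14, 3 of 22 and 4 of 22 in the 3 clusters and 0 of 3 Celsr genes.

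Genes that work with cadherins were taken from 4 lists of 89 genes in all. Of these, 17 were nearest to a listed cytosine, 15 with hypermethylated cytosines alone and 2 with both directions. Over all protein-coding genes 12.3% were nearest to a hypermethylated cytosine, and of all listed genes 87.0% had hypermethylated cytosines alone, so the direction of the partner genes was near the background. The median of their 30 hypermethylated cytosines was 36.5 percentage points, against 41.1 over the whole list. Of 26 catenins and junction partners 8 were listed, all hypermethylated. Ctnna3, the gene of an alpha-catenin, had 8 cytosines from 29.8 to 50.7 percentage points, 7 of them intergenic. Ctnnb1, the gene of beta-catenin, and Ctnna1 had 1 promoter cytosine each, at 39.3 and 36.9 percentage points. Of 25 planar cell polarity and Fat-Dachsous partners 5 were listed, and hypomethylated cytosines occurred at 2 of them. Prickle2, which encodes a core planar polarity protein, had 4 hypermethylated cytosines (34.1 to 46.9 percentage points) and 1 hypomethylated intronic cytosine (-51.7). Ror2, the gene of a Wnt5a receptor, had 1 hypermethylated cytosine (35.1) and 2 hypomethylated cytosines in intron 1 (-52.9 and -35.0 percentage points). Tead1, the gene of a transcription factor of the Hippo pathway, had 3 intronic cytosines from 27.0 to 52.1 percentage points.

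Of 18 cadherin relatives outside the rule, such as desmocollins and desmogleins, only Clstn1, a calsyntenin gene, was listed, with 27.0 and 39.8 percentage points in intron 1. Of 20 regulators and effectors of the clustered protocadherins 3 were listed, with 1 intronic cytosine each, a share near the 12.3% of all protein-coding genes. They were the DNA methyltransferase gene Dnmt3b (51.5), the histone methyltransferase gene Setdb1 (34.8) and the kinase gene Ptk2b (33.7 percentage points). Ctcf, whose protein binds clustered protocadherin promoters, was not listed.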

How the data were processed

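The authors sequenced bisulfite-converted DNA of 6 samples with reads of 50 bp, per the labels. The submitters' processing notes name Bismark and mm9. Apart from the minimum of 25 percentage points, no threshold of the caller was given in the sources used here. Nothing was given there on the caller itself, its coverage minimum or the treatment of replicates. Per the labels and headers, the authors' deposited tables, 1 hypermethylated and 1 hypomethylated, give a signed methylation difference and a distance to a start per cytosine, per the file headers. Columns of per-sample values numbered 0, so depth is unknown and differences have no replicate error.

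Members were found by gene name. The members and the gene lists were chosen with earlier results of these data known. Every gene found is named. Partner genes are named where they had at least 2 cytosines, and Ctnnb1, Ctnna1, Dnmt3b, Setdb1, Ptk2b and Ctcf were named in addition after their values were seen. The sign of the distance follows the strand of the cytosine and was turned to the direction of the gene. For 407 of 408 transcripts with cytosines on both strands, this gave 1 start within 1 bp. Regions joined cytosines of the same direction under 1000 bp apart. UTRs counted as exons. Values were summarised with Python 3.11.15 and scipy 1.17.1, and joining was tested on simulated data. Alternatives were a minimum of 40 percentage points, the forward strand alone, genes by transcript, regions, and joining under 200 or 5000 bp.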

Additional observations from a re-analysis of the deposited data

How the results depend on the processing

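With genes taken by transcript, the one alternative that could add cytosines, no hypomethylated cytosine joined the superfamily. The number of hypermethylated cytosines fell from 49 to 28 at the non-clustered genes and from 28 to 18 at the clustered genes with a minimum of 40 percentage points, and to 31 and 17 on the forward strand alone, as both alternatives keep fewer cytosines. Counted as regions, the clustered genes had 12. The median difference at non-clustered genes was 52.0 percentage points with the minimum of 40, 44.6 on the forward strand and 43.6 with genes taken by transcript, against 43.0. At clustered genes it was 49.6, 40.9 and 42.9 percentage points, against 43.7. The minimum of 40 removes the lower values and so must raise the medians. With genes taken by transcript the counts were 34 and 27, with joining under 200 or 5000 bp there were 37 and 32 non-clustered and 13 and 10 clustered regions, and with the minimum of 40 the share in promoters and exons was 35.7% and 94.4%. No paired analysis was possible because the files hold no values per sample, and for the same reason no replicate could be left out. The authors' minimum of 25 percentage points hides smaller differences of either sign.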

Other observations

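The nearest start is not always that of the gene in which a cytosine lies. Of the 61 listed cytosines inside transcripts of the superfamily, 4 were nearest to the start of another gene, and all 4 were hypermethylated. Cdh22 had 2 of them in its exon 12 of 12 on chromosome 2, 1 in the 3′ UTR at 164937424 with a listed difference of 44.2 percentage points and 1 at 164937668 with 34.6. Cdh4, the gene of R-cadherin, had 1 cytosine in intron 4 of 15 on chromosome 2 (179559804) at 65.7 percentage points, nearest to Taf4a, so that a second type I cadherin gene joins Cdh1. Pcdh15, a partner of Cdh23 in the tip links of hair cells, had 1 cytosine in exon 36 of 36 on chromosome 10 (74106682) at 29.9 percentage points, nearest to Gnaz. These genes were singled out after their values were seen.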
